A study of Mus musculus with 2 samples.

Results

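The 29 genes described here make cholesterol, set how much of it a cell makes, take it up or send it out, and were followed across the mesenchymal cells of the mouse colon. They were taken by name from a fixed list, 19 of synthesis, 5 of regulation and 5 of uptake and export, and all 29 were present among the 32285 genes of both count tables. The cells had been sorted as negative for CD45, EpCAM and CD31, which mark leukocytes, epithelium and endothelium, and as positive for gp38, the protein of Pdpn, a surface marker of fibroblasts. Single cells were profiled with the 10x Chromium 3' v3.1 chemistry, which counts transcripts by unique molecular identifiers (UMIs) at their 3' ends. C57BL/6 mice gave the library named ff, and Balb/c mice gave the one named GF. The design text names germ-free mice and adult mice older than 8 weeks. This age was assigned to ff, and none was assigned to GF. GF is read here only as a name, and ff is not spelled out in the sources used here. There was 1 library of each, and how many mice went into each is not stated in the sources used here. Strain, label, library and any difference in age cannot be told apart. With no replicate libraries no test was made, cells of a library not being replicates, and every interval covers counting error only.

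Cholesterol is built from acetyl-CoA through mevalonate, isoprenoid units and squalene to lanosterol, which a series of demethylases, reductases and isomerases turns into cholesterol. When sterols in the endoplasmic reticulum run low, the escort protein Scap carries the precursor of the transcription factor Srebf2 to the Golgi, and the released factor switches on the synthesis genes; the Insig proteins hold the complex back when sterols are plentiful. Cholesterol taken up in lipoproteins leaves the lysosome through Npc2 and Npc1, and excess cholesterol leaves the cell through the transporters Abca1 and Abcg1, whose genes, with Mylip, are switched on by oxysterol receptors.

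The deposited matrices held 13704 barcodes for ff and 16388 for GF, with medians of 8685 and 6147.5 UMIs per barcode, and 55 barcode sequences occurred in both. After filters on cells and doublets, joint clustering and a gate on fibrillar collagen RNA, the fibroblast-like pool held 11552 ff and 12286 GF cells with medians of 8917 and 6706 UMIs; 36 barcodes occurred in the pool of both. A UMI of Pdpn was found in 82.9% of pool cells in ff and 79.4% in GF. Clusters were named from marker lists, with the sterol genes left out of the clustering. The Foxl1-high-like class, cells under the epithelium known as telocytes or subepithelial myofibroblasts, held 2086 ff and 1015 GF cells in 2 clusters. In each library 11 of its 14 markers stood at least 2-fold higher than in the other fibroblast-like cells. The lamina propria fibroblast-like class held 1394 and 1021 cells (5 of 8 markers in ff, 4 in GF), and the adventitial or submucosal fibroblast-like class 2799 and 3755 cells (10 of 12 in both). A further 5273 ff and 6495 GF cells in 7 clusters were collagen-rich but were given no name. Smooth muscle-like cells numbered 185 and 343 (9 and 8 of 9 markers) and lie outside the fibroblast-like pool. Clusters are called by their leading gene.

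The members were measured at 187 to 38640 UMIs in the pool of a library, so all 29 passed the minimum of 50 UMIs in each. A level is the UMIs of a gene summed over the cells of a class, per 1000000 UMIs of that class (CPM). The upstream sequences of members that moved together, and of members that did not, were looked up in the RefSeq promoter table of GRCm38.p6, which had entries for 23 of the 29. Fdps, Fdft1, Sqle, Stard4, Npc1 and Abcg1 had none. To compare their letters, the 150 bases just before the annotated start are printed for 3 synthesis genes raised in the Foxl1-high-like class, Hmgcs1 (chr13:119690201-119690350, plus strand), Mvd (chr8:122443423-122443572, minus strand) and Sc5d (chr9:42264301-42264450, minus strand), and for 2 genes of export and uptake that were not raised, Abca1 (chr4:53159896-53160045, minus strand) and Mylip (chr13:45389592-45389741, plus strand). None of these 5 stretches overlaps an exon of the GENCODE annotation. Capitals mark CACNCCAC, CCAAT and CACGTG, read on either strand, so that CCAAT on the other strand appears as ATTGG.
Hmgcs1: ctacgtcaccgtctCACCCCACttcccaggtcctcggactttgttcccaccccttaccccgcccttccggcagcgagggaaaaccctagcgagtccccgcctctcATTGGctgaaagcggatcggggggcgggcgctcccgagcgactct
Mvd: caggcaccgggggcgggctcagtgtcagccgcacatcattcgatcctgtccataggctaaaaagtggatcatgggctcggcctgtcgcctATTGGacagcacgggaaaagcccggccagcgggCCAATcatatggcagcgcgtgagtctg
Sc5d: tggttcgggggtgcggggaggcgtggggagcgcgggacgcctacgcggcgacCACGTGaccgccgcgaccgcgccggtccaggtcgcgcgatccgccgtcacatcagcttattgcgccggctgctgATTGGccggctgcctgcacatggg
Abca1: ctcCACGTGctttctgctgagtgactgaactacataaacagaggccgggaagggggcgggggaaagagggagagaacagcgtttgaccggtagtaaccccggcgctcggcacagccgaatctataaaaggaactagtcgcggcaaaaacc
Mylip: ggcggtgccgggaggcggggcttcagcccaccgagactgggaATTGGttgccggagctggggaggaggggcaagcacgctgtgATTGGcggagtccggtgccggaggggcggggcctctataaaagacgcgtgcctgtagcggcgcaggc
The Hmgcs1 stretch holds CACNCCAC at position -136 from the start, and with the T before it this is TCACNCCAC, the core of the sterol regulatory element that Srebf2 binds. Over the 250 bases upstream of a start, TCACNCCAC was found in 1.05% of 32851 windows and in 1 of 23 members, Hmgcs1. The shorter CACNCCAC, which lies inside it, was found in 5.29% of windows and in 3 members, Acat2, Hmgcs1 and Insig1. CCAAT, the box of the factor NF-Y, was found in 33.8% of windows and in 20 members. These were 15 of the 16 synthesis genes with an entry, 3 of 4 regulation genes and 2 of 3 uptake and export genes. Counted by window, it was found in 20 of the 29 windows of members. CACGTG, an E-box, was found in 6.02% of windows and in 6 members. A repeat looked up for the oxysterol receptors was found in 0.0457% of windows and in no member. Its spacing was shorter than that of the DR4 repeat these receptors bind. The DR4 repeat itself was not looked up, so its presence in the members is not known here. A match describes the letters of a window, and none was shown here to be bound.

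Synthesis genes were higher in Foxl1-high-like cells than in the other fibroblast-like cells of the same library, from the first committed steps to the late sterol steps. Of the 19, 12 were at least 1.5-fold higher in both libraries and 0 were that much lower in both, with median log2 ratios of 1.01 in ff and 0.89 in GF. Over all 13133 genes measured the medians were 0.10 and 0.16, 10.3% were at least 1.5-fold higher in both libraries and 11.1% at least 1.5-fold lower. Among the 5 regulation genes, 2 were higher, Srebf2 and Stard4, and among the 5 uptake and export genes 0 were higher and 1, Npc2, was lower. Log2 ratios were taken after adding 1 CPM to both levels, and the 95% intervals beside them are exact and were computed without that addition. Where Foxl1-high-like cells were instead picked cell by cell, with at least 3 UMIs over 3 markers, 4931 ff and 2948 GF cells passed, of which 41.9% and 34.3% belonged to the class, and the counts became 2 synthesis genes higher and 0 uptake and export genes lower. A stricter pick (at least 10 UMIs over 5 markers), chosen after this was seen, took 2191 and 1115 cells, of which 86.3% and 83.0% were of the class, and gave 12 and 1.

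**Figure D1:**
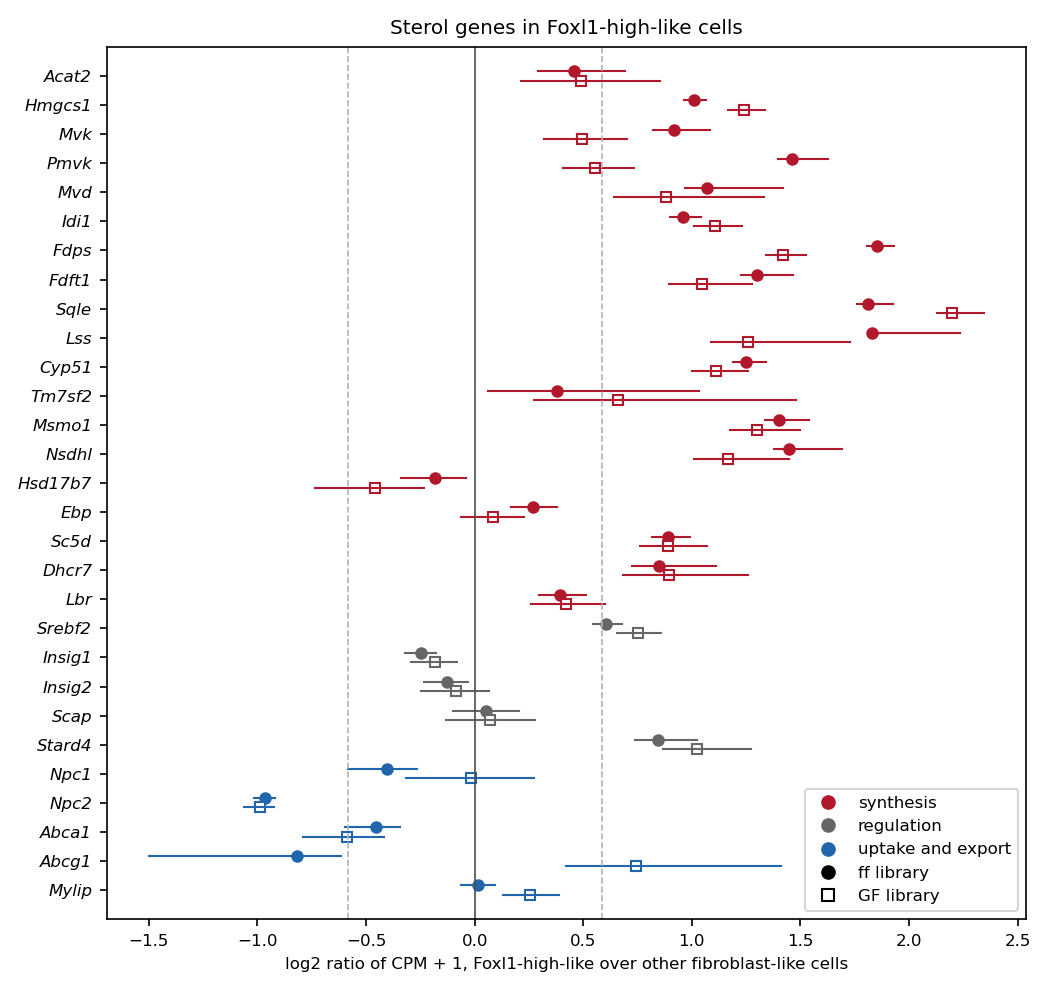
Log2 ratios of the level (CPM + 1) in Foxl1-high-like cells over other fibroblast-like cells for the 29 sterol genes, filled circles for ff and open squares for GF, with 95% counting intervals as lines and dashed lines at 1.5-fold. Most synthesis genes lie to the right of 0 in both libraries, Hsd17b7 lies to the left, and Npc2 lies near -1 in both.

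In the account that follows, levels are given in the order Foxl1-high-like, lamina propria fibroblast-like, adventitial or submucosal fibroblast-like, unnamed fibroblast-like and smooth muscle-like cells. Hmgcs1 (chr13:119690379-119708260), the cytosolic synthase at the entry to the mevalonate pathway, stood at 234, 85.97, 172, 100.2 and 107 CPM in ff and at 178, 53.1, 84.4, 73.1 and 78.7 CPM in GF. Its log2 ratio was 1.01 (0.96 to 1.07) in ff and 1.24 (1.17 to 1.34) in GF. In ff the adventitial or submucosal-like cells were the next highest, while in GF they stood close to the unnamed and smooth muscle-like cells. Mvd, which decarboxylates mevalonate diphosphate, was a low gene, at 13.03, 4.90, 6.52, 5.57 and 6.07 CPM in ff and at 11.1, 4.87, 4.98, 6.03 and 3.36 CPM in GF, with ratios of 1.07 and 0.88. Idi1 (chr13:8885501-8892451), the isomerase of the isoprenoid unit, stood at 119, 29.996, 121, 43.6 and 38.2 CPM in ff and at 104, 17.8, 78.97, 34.8 and 32.6 CPM in GF. Its levels in Foxl1-high-like and adventitial or submucosal-like cells of ff did not differ beyond their intervals, at 119 CPM (114 to 124) and 121 CPM (117 to 126), and the lamina propria-like cells were the lowest in both libraries. The log2 ratio was 0.96 (0.90 to 1.04) in ff and 1.10 (1.01 to 1.23) in GF.

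Fdps (chr3:89093588-89101959), which makes farnesyl diphosphate, was the most raised of the isoprenoid enzymes, with ratios of 1.85 (1.81 to 1.93) in ff and 1.42 (1.34 to 1.53) in GF. It stood at 201, 41.8, 73.8, 51.04 and 30.3 CPM in ff and at 160.1, 41.4, 78.4, 50.8 and 47.98 CPM in GF. Fdft1, squalene synthase, stood at 46.996, 13.1, 26.8, 16.5 and 8.49 CPM in ff and at 35.5, 9.74, 20.3, 15.8 and 17.8 CPM in GF, and its ratios were 1.30 and 1.05. The next enzyme, squalene epoxidase, is encoded by Sqle (chr15:59315077-59331192), which stood at 112, 34.2, 36.7, 27.6 and 27.3 CPM in ff and at 129.5, 27.6, 30.6, 25.5 and 17.8 CPM in GF. Every other class lay far below the Foxl1-high-like cells, and the intervals did not overlap. Among Foxl1-high-like cells, 52.01% had a Sqle UMI in ff and 51.9% in GF. With every cell thinned to 2000 UMIs the shares were 18.1% (16.5% to 19.8%) and 20.1% (17.6% to 22.7%). In the rest of the pool outside the Cfd-led cluster they were 5.83% and 4.82%. In the Cfd-led cluster they were 8.87% (5.82% to 12.8%) and 9.21% (6.69% to 12.3%). Lymphocyte-like cells had 1.87% (0.227% to 6.59%), which is 2 of 107 cells, in ff and 3.02% (2.06% to 4.27%) in GF. Unthinned medians were 8748 and 7226 UMIs in the Foxl1-high-like class and 4480.0 and 2582 UMIs among lymphocyte-like cells. Lss, which closes the sterol rings to lanosterol, stood at 19.96, 4.59, 4.85, 5.01 and 5.46 CPM in ff and at 13.5, 3.77, 4.49, 5.69 and 4.80 CPM in GF, with ratios of 1.83 and 1.26.

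The enzymes that turn lanosterol into cholesterol were also higher in the class, with exceptions. Cyp51, the lanosterol demethylase, stood at 109, 32.4, 77.8, 35.2 and 38.8 CPM in ff and at 78.8, 19.5, 52.3, 29.2 and 20.2 CPM in GF, and Foxl1-high-like cells led in both libraries with adventitial or submucosal-like cells next. Msmo1, a methylsterol oxidase, stood at 66.8, 16.2, 39.7, 20.6 and 21.2 CPM in ff and at 51.4, 12.2, 26.9, 17.8 and 19.7 CPM in GF. Its ratios were 1.40 (1.34 to 1.54) in ff and 1.30 (1.18 to 1.499) in GF. Nsdhl, a dehydrogenase of the same demethylation, stood at 28.4, 8.53, 11.4, 9.49 and 7.28 CPM in ff and at 27.6, 9.62, 13.1, 11.3 and 11.04 CPM in GF, with ratios of 1.45 and 1.16. Sc5d, a sterol desaturase, stood at 79.2, 20.1, 69.7, 37.3 and 24.3 CPM in ff and at 52.4, 16.9, 32.5, 26.95 and 17.8 CPM in GF, and its ratios were 0.89 and 0.89. Dhcr7, a reductase of the last steps, was low everywhere, at 16.7, 9.17, 7.49, 9.35 and 3.03 CPM in ff and at 15.7, 8.40, 5.81, 9.28 and 7.68 CPM in GF. Its ratios were 0.85 and 0.89. The 7 remaining synthesis genes were not 1.5-fold apart in both libraries. Mvk, mevalonate kinase, stood at 0.92 and 0.49 in ff and GF, Pmvk, phosphomevalonate kinase, at 1.46 and 0.56, and Tm7sf2, a sterol reductase, at 0.38 and 0.66. Acat2, a thiolase that feeds the pathway, stood at 0.46 and 0.49, Lbr, a sterol reductase of the nuclear membrane, at 0.39 and 0.42, and Ebp, a sterol isomerase, at 0.27 and 0.08. Hsd17b7, the ketoreductase that works beside Nsdhl, was the only synthesis gene with a ratio below 0 in both libraries, at -0.18 (-0.34 to -0.04) in ff and -0.46 (-0.74 to -0.24) in GF.

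The 5 regulation genes did not move as a group. Srebf2 (chr15:82147181-82205379) stood at 123, 50.4, 116, 74.1 and 61.3 CPM in ff and at 119.9, 48.7, 93.3, 61.4 and 56.1 CPM in GF. Its ratios over other fibroblast-like cells were 0.61 (0.54 to 0.68) in ff and 0.75 (0.66 to 0.86) in GF. With median-of-ratios scaling, which shifted all ratios by 0.12 in ff and 0.19 in GF, they were 0.49 and 0.56 and no longer reached 1.5-fold, whereas the count of synthesis genes stayed at 12. Stard4, a cytosolic carrier of sterols, stood at 29.9, 15.5, 23.3, 13.3 and 13.96 CPM in ff and at 32.4, 10.7, 17.01, 15.3 and 12.5 CPM in GF, with ratios of 0.84 and 1.03. Insig1 (chr5:28071363-28078662), itself a gene that Srebf2 is known to switch on, stood at 95.2, 95.3, 135, 109 and 41.3 CPM in ff and at 101, 125, 98.95, 123 and 26.9 CPM in GF. It was not raised in the Foxl1-high-like class, with ratios of -0.25 (-0.32 to -0.18) in ff and -0.18 (-0.29 to -0.08) in GF. Insig2 stood at 49.2, 79.9, 37.8, 52.5 and 63.7 CPM in ff and at 46.8, 73.4, 43.8, 48.98 and 44.1 CPM in GF, highest in lamina propria-like cells of both libraries, where its ratios were 0.72 and 0.63 in ff and GF. Scap stood at 22.5, 17.7, 21.2, 23.1 and 13.3 CPM in ff and at 28.3, 26.9, 23.4, 29.1 and 13.4 CPM in GF, and its ratios in Foxl1-high-like cells were 0.05 and 0.07.

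Npc2 (chr12:84754562-84773152), the soluble lysosomal cholesterol carrier, was lower in Foxl1-high-like cells. It stood at 208, 347, 422, 419 and 172 CPM in ff and at 232, 349, 527, 442 and 185 CPM in GF, so that the Foxl1-high-like and smooth muscle-like cells lay below the other classes in both libraries. Its ratios were -0.96 (-1.01 to -0.92) in ff and -0.99 (-1.06 to -0.92) in GF. Npc1, its membrane partner, stood at 19.5, 28.02, 24.4, 26.2 and 21.8 CPM in ff and at 13.8, 16.4, 11.01, 15.3 and 17.3 CPM in GF. The ratios were -0.40 (-0.58 to -0.26) in ff and -0.02 (-0.32 to 0.27) in GF, and the GF interval spans 0. Abca1 (chr4:53030787-53159895), which loads cholesterol onto apolipoproteins, stood at 30.2, 16.2, 73.7, 35.8 and 19.4 CPM in ff and at 32.6, 37.1, 66.03, 41.8 and 31.7 CPM in GF. It was highest in the adventitial or submucosal-like class of both libraries, where its ratios were 1.23 and 0.71, and it stood at -0.46 and -0.59 in the Foxl1-high-like class. Abcg1 (chr17:31057675-31117988), a transporter that acts with it, was a low gene, at 2.55, 8.34, 0.878, 6.24 and 1.21 CPM in ff and at 5.46, 6.45, 0.490, 3.64 and 0.480 CPM in GF. Its ratios in the Foxl1-high-like class had opposite signs, -0.82 (-1.501 to -0.62) in ff and 0.74 (0.42 to 1.41) in GF. Mylip, a ubiquitin ligase that removes lipoprotein receptors, stood at 83.9, 131, 63.3, 76.3 and 77.7 CPM in ff and at 71.3, 103, 33.5, 67.3 and 79.2 CPM in GF. It was highest in lamina propria-like cells, at ratios of 0.80 and 0.86, and stood at 0.01 and 0.26 in Foxl1-high-like cells.

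Depth and other sources of RNA were measured beside these values. The Foxl1-high-like class had a median of 8748 UMIs per cell in ff and 7226 in GF. Mitochondrial UMIs made up 3.31% and 4.43% there, and 3.24% and 4.02% in the pool. The summed level of 14 immediate early genes, which dissociation can raise, was 33486 (ff) and 30834 (GF) CPM, and in the pool 32941 (ff) and 31316 (GF) CPM. Haemoglobin RNA stood at 360.0 (ff) and 204 (GF) CPM, and in the pool 161 (ff) and 112 (GF) CPM. Within the class it lay almost wholly in the Ptprr-led cluster, at 961 (ff) and 598 (GF) CPM, and stood at 4.39 (ff) and 0.789 (GF) CPM in the Wif1-led cluster. Markers of B and plasma cells summed to 30.3 (ff) and 9.23 (GF) CPM in the class and 83.9 (ff) and 24.6 (GF) CPM in the pool, and markers of blood endothelium to 4.12 (ff) and 3.51 (GF) CPM in the class and 12.8 (ff) and 34.2 (GF) CPM in the pool. The part of these other cells in the ratios was not tested.

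Both Foxl1-high-like clusters had raised synthesis genes, with different leading members. The Wif1-led cluster (1403 ff and 680 GF cells) had 14 of 19 at least 1.5-fold higher in both libraries, where 9.66% of all genes were, and the Ptprr-led cluster (683 and 335 cells, with Mt3, Trpa1 and Nrg1 among its leading genes) had 9, where 7.67% were. Neither had a synthesis gene that much lower in both libraries, where 11.3% of all genes were for each cluster. Fdps led in the Wif1-led cluster, at 232 CPM in ff and 182 in GF against 149.6 and 118 in the Ptprr-led cluster. Hmgcs1 led in the Ptprr-led cluster, at 288 and 250.4 CPM against 202 and 141. Sqle did not differ between them in ff beyond its intervals, at 114 CPM (108 to 119.8) and 108 CPM (101 to 116), and in GF it stood at 117 CPM (107 to 126) in the Wif1-led and 155 CPM (139.9 to 170.4) in the Ptprr-led cluster. Stard4 was higher in both clusters and Srebf2 in the Wif1-led one (0.64 and 0.65; 0.37 and 0.81 in the Ptprr-led). Npc2 was lower in both clusters, at -0.95 and -0.90 in the Wif1-led and -0.80 and -1.07 in the Ptprr-led cluster.

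**Figure D2:**
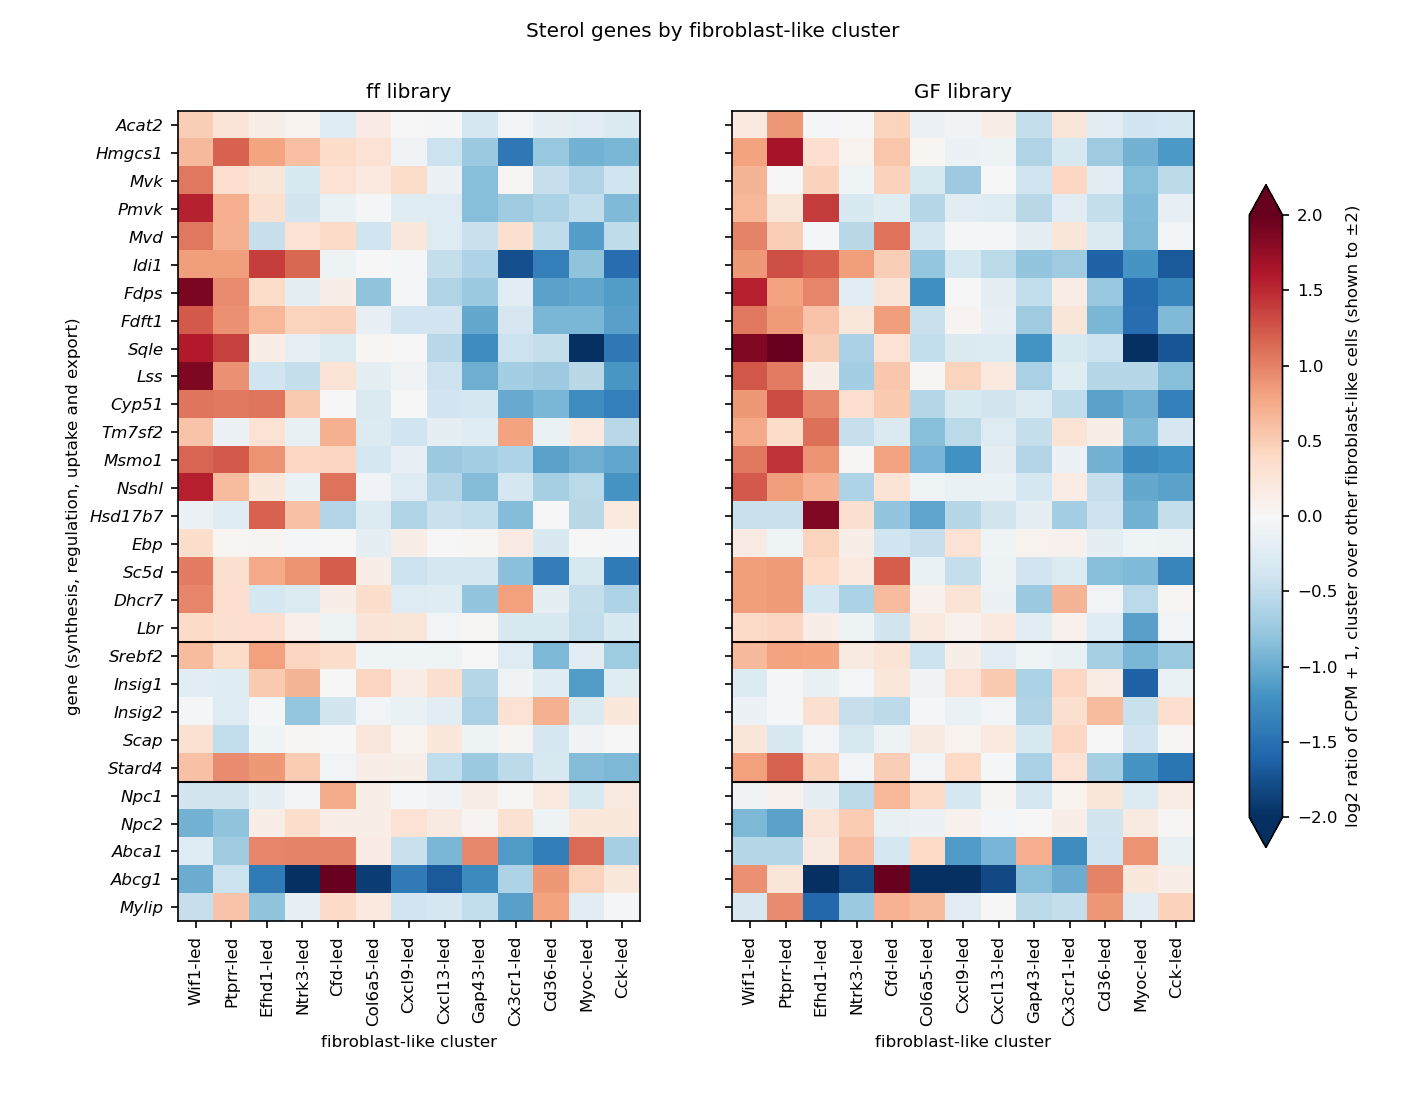
Log2 ratios of the level (CPM + 1) in each of 13 fibroblast-like clusters over the other fibroblast-like cells of the library, for the 29 sterol genes, ordered by the summed synthesis level in ff; colours are cut at ±2. The Wif1-led and Ptprr-led columns are raised over most synthesis rows in both libraries, the Myoc-led and Cck-led columns are lowered, and Abcg1 is raised most in the Cfd-led column.

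In adventitial or submucosal-like cells the synthesis genes had medians of -0.04 in ff and 0.16 in GF, against -0.14 and -0.27 for all genes. In the class as a whole 2 of 19 were at least 1.5-fold higher in both libraries, Idi1 (1.04 and 0.91) and Hsd17b7 (0.63 and 1.26), where 4.69% of all genes were, and 0 were that much lower, where 13.6% were. The Efhd1-led cluster, with Dpp4 among its leading genes, had 4 higher, where 5.22% of all genes were, and 0 lower, where 16% were. These were Idi1 (1.39 and 1.20), Cyp51 (1.06 and 0.97), Msmo1 (0.91 and 0.89) and Hsd17b7 (1.17 and 1.85). Hsd17b7 was highest there, at 56.04 CPM in ff and 72.99 in GF, against 37.7 and 30.8 in the Ntrk3-led cluster, the next highest. Idi1 was highest there in ff, at 174 CPM, while in GF its 108 CPM (102 to 115) overlapped the Ptprr-led 126 CPM (112 to 139.9). Cyp51 was highest there in ff too, at 114 CPM, with an interval that overlapped that of the Ptprr-led cluster at 112 CPM. In GF the Ptprr-led cluster was highest for Cyp51, at 95.8 CPM against 71.6 CPM in the Efhd1-led. Hmgcs1 of the Efhd1-led cluster stood at 230 CPM in ff, second to the Ptprr-led 288 CPM. Srebf2 was also higher (0.82 and 0.79). Mylip was low in the Efhd1-led cluster (-0.80 and -1.56). The Gap43-led cluster of the same class, marked by Pi16, went the other way, with 6 synthesis genes lower in both libraries, where 13.4% of all genes were, among them Sqle (-1.26 and -1.20), and Abca1 higher (0.96 and 0.73), where 3.02% were. Summed immediate early genes stood at 23027 (ff) and 13518 (GF) CPM in the Efhd1-led and 27794 (ff) and 25485 (GF) CPM in the Gap43-led cluster, below the pool, and their part in these ratios was not tested.

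Lamina propria-like cells, all in the Cd36-led cluster, had lower synthesis genes and higher Insig2, Abcg1 and Mylip. Of 19 synthesis genes 7 were at least 1.5-fold lower in both libraries, where 6.22% of all genes were, and 0 were higher, where 3.25% were; they were Hmgcs1, Idi1, Fdps, Fdft1, Cyp51, Msmo1 and Sc5d. Idi1 stood at -1.37 (-1.53 to -1.26) in ff and -1.62 (-1.92 to -1.44) in GF. Srebf2 was lower as well (-0.90 and -0.67), and Sqle was not 1.5-fold apart, at -0.48 and -0.43. Of the uptake and export genes 2 of 5 were higher, Mylip and Abcg1 (0.86 and 0.99). The Col6a5-led cluster, with the lamina propria markers Col6a5 and Adamdec1 among its leading genes, did not share this pattern. It was left unnamed by a tie with the haemoglobin genes Hbb-bt and Hba-a2. There 1 of 19 synthesis genes was lower in both libraries, where 5.73% of all genes were. Its Abcg1 was lower, and Insig2 and Mylip were not 1.5-fold higher in both. Among unnamed clusters, the Cck-led cluster had 10 synthesis genes lower in both libraries, where 7.36% of all genes were, with medians of -0.91 and -0.85, and the Myoc-led cluster 9, where 9.02% were. Sqle was lowest in the Myoc-led cluster, at 10.1 CPM (7.58 to 13.2) in ff and 4.84 CPM (3.13 to 7.14) in GF. Abca1 was highest there, at 83.5 and 85.8 CPM (at least 1.5-fold higher than in the rest of the pool in both libraries, where 3.65% of all genes were), with intervals that overlapped those of the Cfd-led cluster in ff and the Gap43-led cluster in GF, and Insig1 was lower there than in any other fibroblast-like cluster, at 51.6 and 37.9 CPM. In the Cck-led cluster haemoglobin RNA was at 286 (ff) and 0.769 (GF) CPM and B and plasma cell markers summed to 203 (ff) and 129 (GF) CPM. These markers stood above the pool in both libraries, and the part of either RNA was not tested. Smooth muscle-like cells had 4 synthesis genes (Idi1, Sqle, Hsd17b7 and Sc5d) and 3 uptake and export genes (Npc2, Abca1 and Abcg1) lower than the fibroblast-like pool in both libraries, where 14.3% of all genes were, and 0 of either higher, where 10.2% were. As a class the unnamed fibroblast-like cells had 5 synthesis genes lower in both libraries (Idi1, Fdps, Sqle, Cyp51 and Msmo1), where 3.46% of all genes were, and 0 higher, where 3.45% were.

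The remaining clusters showed few calls among the members. In the Ntrk3-led cluster Idi1 (1.14 and 0.84) and Abca1 (0.99 and 0.62) were at least 1.5-fold higher in both libraries, where 2.96% of all genes were, and Abcg1 was lower, where 10.6% were. The Cx3cr1-led cluster, marked by Lrat, had Dhcr7 higher (0.83 and 0.68), where 4.18% of all genes were, and Idi1, Hsd17b7, Abca1 and Abcg1 lower, where 7.12% were. Its immediate early genes summed to 11967 (ff) and 20324 (GF) CPM, below the pool, with 10 of 14 at least 1.5-fold lower in both libraries, and its B and plasma cell markers to 235 (ff) and 40.9 (GF) CPM, above the pool. The part of neither was tested. In the Col6a5-led cluster Fdps (-0.81 and -1.22) and Abcg1 were lower, where 5.73% of all genes were, 0 members were higher, where 5.56% were, and the cluster held 764 (ff) and 795 (GF) CPM of haemoglobin RNA. The Cxcl13-led cluster had 0 synthesis genes apart in either direction, where 1.7% of all genes were higher and 5.19% lower, and its Abca1 (-0.92 and -0.93) and Abcg1 (-1.69 and -1.80) were lower. The Cxcl9-led cluster of 87 ff and 113 GF cells was led by interferon-induced genes such as Ubd and Gbp4. It had 0 members higher, where 3.74% of all genes were. Abcg1 was called lower, where 8.3% of all genes were, but the cluster had 0 UMIs of Abcg1 in GF. There the floor of 3 UMIs, 3.56 CPM, lay above the Abcg1 level of the GF pool. The call therefore does not show a lower level.

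Abcg1 was set apart from the other members by its range. It stood at 58.3 CPM (49.1 to 68.6) in ff and 35.5 CPM (29.2 to 42.9) in GF in the Cfd-led cluster, 283 and 459 cells whose leading genes include Cox8b and Car3 and which got no name. The next cluster, the Cd36-led, stood at 8.34 CPM (6.98 to 9.90) and 6.45 CPM (4.83 to 8.44). In the GF library the Efhd1-led, Col6a5-led and Cxcl9-led clusters had 0 UMIs of Abcg1, where a floor of 3 UMIs allows up to 0.332, 0.415 and 3.56 CPM. An Abcg1 UMI was found in 33.6% of Cfd-led cells in ff and 20.5% in GF, against 1.08% and 0.292% of smooth muscle-like cells, with medians of 8359 and 6627 UMIs against 7663 and 5789. Thinned to 2000 UMIs per cell, the Cfd-led shares were 8.51% (5.53% to 12.4%) and 6.74% (4.59% to 9.48%). In the rest of the pool outside the Foxl1-high-like class they were 0.723% and 0.257%, and among lymphocyte-like cells 2.80% and 9.66%. The Cfd-led cluster also had the highest Npc1, at 41.6 and 22.2 CPM, and the highest Sc5d, at 111 and 67.2 CPM, though in GF the Npc1 interval overlapped that of the Col6a5-led and the Sc5d interval that of the Ptprr-led cluster. Of its 5 uptake and export genes 2 were at least 1.5-fold higher in both libraries, Npc1 (0.74 and 0.66) and Abcg1 (3.73 and 3.66), where 7.83% of all genes were; Sc5d was higher too (1.21 and 1.20), and Hsd17b7 was lower (-0.59 and -0.79), where 9.29% were.

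**Figure D3:**
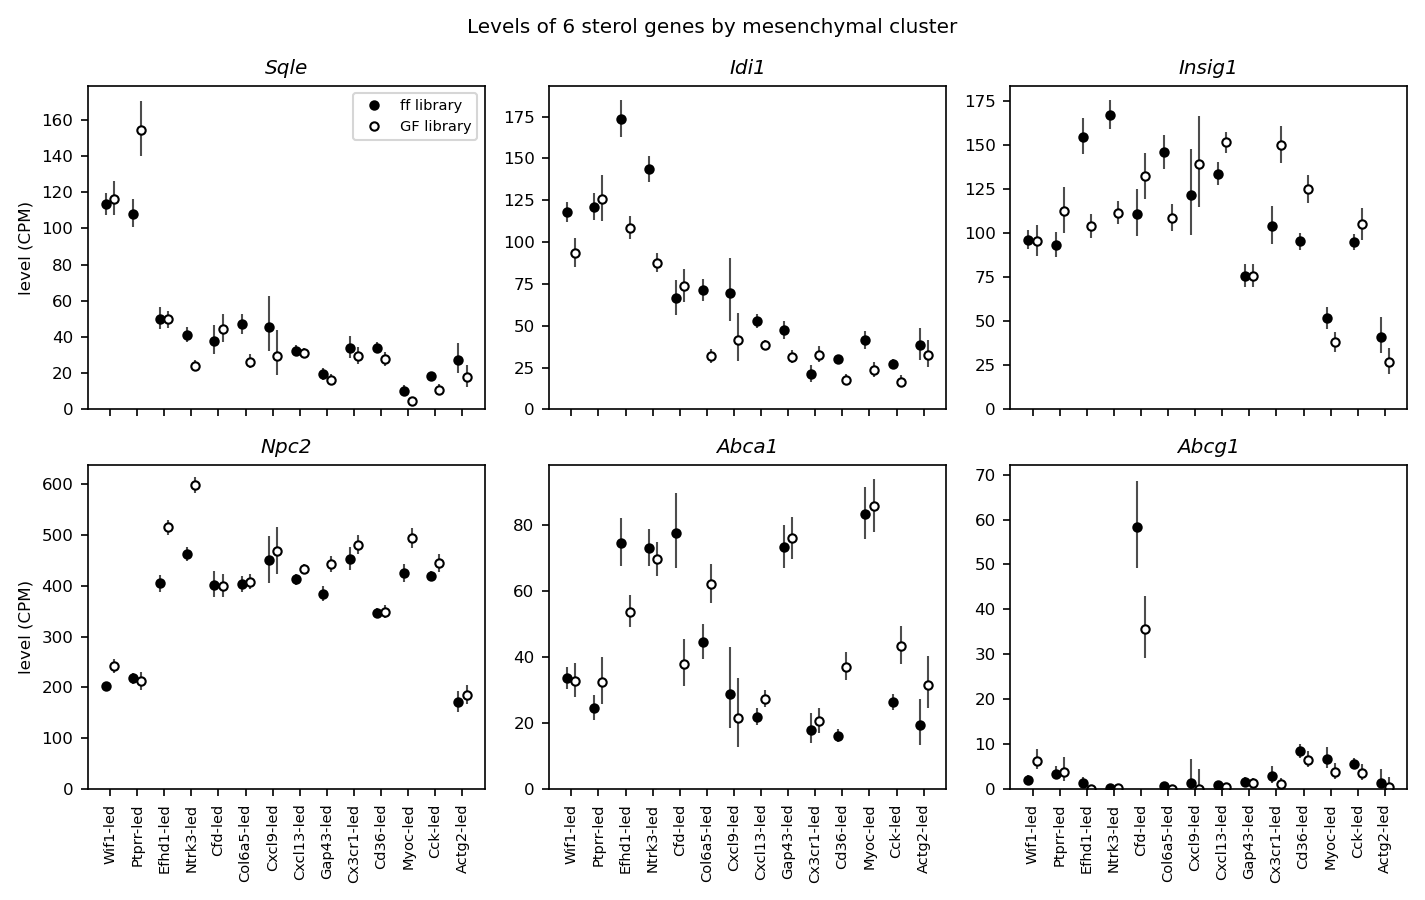
Levels (CPM, linear axis from 0) of Sqle, Idi1, Insig1, Npc2, Abca1 and Abcg1 in the 14 mesenchymal clusters, filled circles for ff and open circles for GF, with 95% counting intervals as lines. Sqle is highest in the Wif1-led and Ptprr-led clusters, Npc2 is lowest in these and in the smooth muscle-like Actg2-led cluster, and Abcg1 is high in the Cfd-led cluster.

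Summed over genes, synthesis and the uptake and export side differed most in balance in the Foxl1-high-like class. Its 19 synthesis genes summed to 1269 CPM (1253 to 1285) in ff and 1066 CPM (1043 to 1089.6) in GF, and its 5 uptake and export genes to 344 and 355 CPM, a ratio of 3.69 and 3.003. In adventitial or submucosal-like cells the sums were 818 and 642 CPM of synthesis and 585 and 638 CPM of uptake and export. Lamina propria-like cells had 436 and 371 CPM of synthesis against 531 and 511 CPM. The smooth muscle-like cells were low on both sides, with 471 and 436 CPM of synthesis and 292 and 313 CPM of uptake and export. Npc2 alone gave 369.9 of 522 CPM of the uptake and export sum in the ff pool and 441 of 566 CPM in the GF pool, so most of this sum was Npc2. The 5 genes include no lipoprotein receptor, and Mylip, which removes such receptors, is among them. The sum is therefore not a measure of uptake. The synthesis sum exceeded the other in 9 of 14 clusters in ff and in 5 of 14 in GF. It was highest in the Wif1-led cluster in ff, at 1307 CPM, and in the Ptprr-led cluster in GF, at 1143 CPM. The Efhd1-led cluster came after both Foxl1-high-like clusters in each library, with 1098 and 894 CPM, and the Myoc-led and Cck-led clusters were the lowest, with 409.8 and 282 CPM and 400.5 and 314 CPM.

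**Figure D4:**
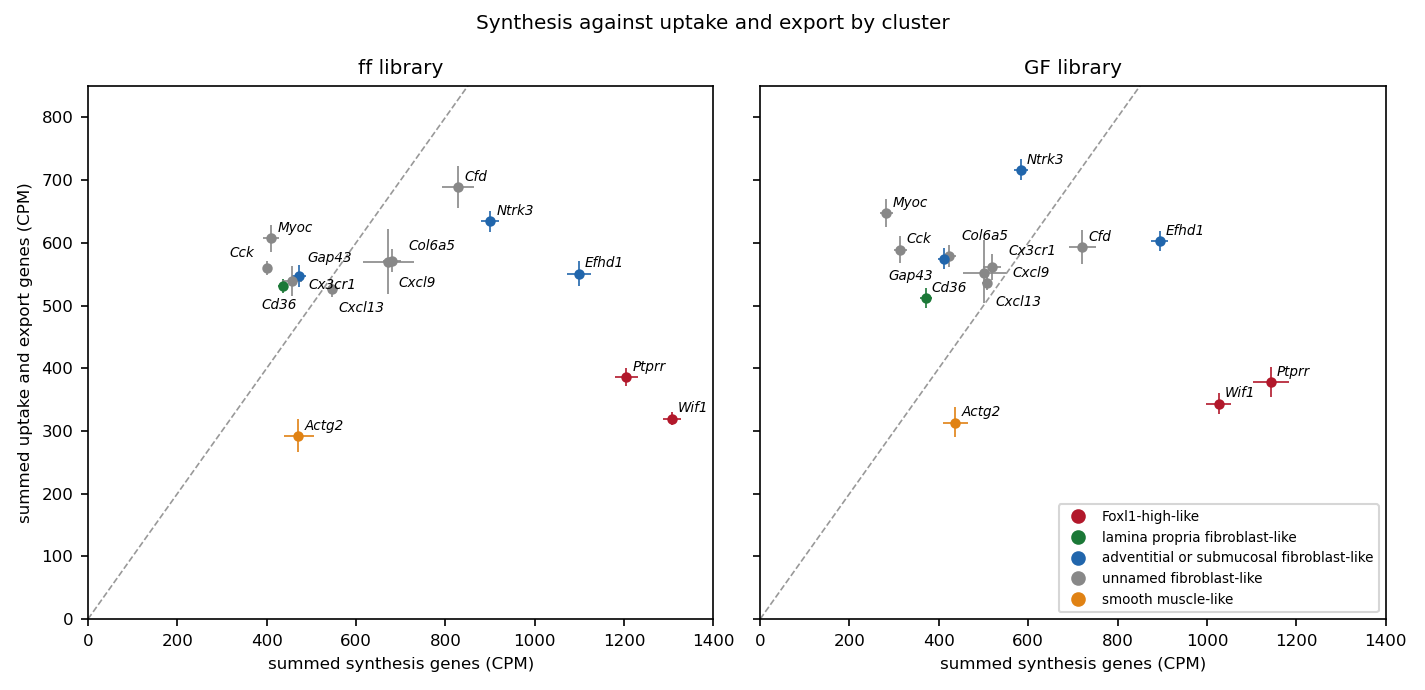
Summed level of the 19 synthesis genes (x axis, CPM) against the summed level of the 5 uptake and export genes (y axis, CPM) for 14 clusters of each library, coloured by class, with 95% counting intervals and a dashed line where both sums are equal. The Wif1-led and Ptprr-led clusters lie farthest below the line, and the Ntrk3-led cluster lies below it in ff and above it in GF.

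Across the 13 fibroblast-like clusters the members did not all vary together. The likeness of each gene to the pathway was described by the rank correlation (Spearman's rho, over 13 clusters of 1 library, with no p) between its level and the summed level of the other synthesis genes. It was high in both libraries for Hmgcs1 (0.91 and 0.92 in ff and GF), Fdps (0.88 and 0.92), Fdft1 (0.91 and 0.97), Sqle (0.90 and 0.88), Cyp51 (0.93 and 0.90) and Msmo1 (0.94 and 0.91), and for the regulators Srebf2 (0.91 and 0.93) and Stard4 (0.92 and 0.94). It was low for Hsd17b7 (0.27 and 0.29), Ebp (0.43 and 0.36), Insig1 (0.45 and 0.21), Insig2 (-0.26 and -0.07) and Scap (0.20 and 0.07). The summed uptake and export genes stood at -0.18 and -0.26, Npc2 alone at -0.38 and -0.25, and Abca1 had opposite signs (0.20 and -0.39). The clusters of a library share its depth and preparation, and median UMIs per cell stood at -0.34 and 0.04 with the synthesis sum.

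Between the libraries, Npc1, Hmgcs1 and Sc5d were lower in GF. In the pool these 3 of 29 members were at least 1.5-fold lower, where 5.5% of 14747 genes measured were, and 0 were higher, where 4.8% were. Npc1 stood at 24.9 CPM in ff and 13.9 in GF, a log2 ratio of -0.79 (-0.94 to -0.74). Hmgcs1 stood at 137 and 84.1 CPM, a ratio of -0.70 (-0.75 to -0.67), and Sc5d at 49.1 and 29.98 CPM, a ratio of -0.69 (-0.78 to -0.64). Cyp51 came next, at -0.51 (-0.58 to -0.46). The synthesis genes had a median of -0.26, all genes one of 0.02. Npc1 and Sc5d were lower in GF in 14 of 14 clusters, with intervals below 0 in 11 and 9 of them, and Hmgcs1 in 13 of 14, the Cx3cr1-led cluster (0.39) being the exception. With the GF clusters weighted by their ff shares the ratios were -0.77 for Npc1, -0.67 for Hmgcs1 and -0.77 for Sc5d. Ebp was higher in GF in 13 of 14 clusters and Npc2 and Scap in 12, with pool ratios of 0.30, 0.25 and 0.30. All clusters come from the same ff and GF libraries, so these counts of clusters are not repeated evidence. The share of all genes with such counts was not computed. Cells of GF carried fewer UMIs, and thinned to 2000 UMIs per cell 5 members were lower, Idi1 (-0.59) and Cyp51 (-0.61) being added.

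The size of these differences varied between classes. In adventitial or submucosal-like cells 5 of 28 members measured were at least 1.5-fold lower in GF, where 10.4% of all genes were, and 1 was higher, where 5.01% were. Hmgcs1 stood there at -1.01 (-1.10 to -0.95), Sc5d at -1.08 (-1.23 to -0.98), Npc1 at -1.08 (-1.36 to -0.94), Mylip at -0.90 (-1.04 to -0.79) and Idi1 at -0.61 (-0.70 to -0.54), and Pmvk was higher at 0.98 (0.85 to 1.18). The immediate early genes of this class summed to 31495 (ff) and 22966 (GF) CPM, and their part was not tested. In lamina propria-like cells 4 of 28 were lower (Hmgcs1, Idi1, Cyp51 and Npc1), where 6.6% of all genes were, and Abca1 was higher at 1.15 (0.95 to 1.44), where 10.2% of all genes were. Its level there stood at 16.2 CPM in ff against 37.1 CPM in GF. In Foxl1-high-like cells the synthesis genes had a median of -0.20, against 0.11 for all genes. There Sc5d alone was lower, at -0.59 (-0.76 to -0.44), where 6.66% of all genes were, and Abcg1 alone higher, at 0.86 (0.47 to 1.72), where 8.36% were. Sqle stood at 0.21 (0.11 to 0.32) and Hmgcs1 at -0.39 (-0.48 to -0.31). In the unnamed fibroblast-like cells 2 of 29 were lower, Npc1 at -0.74 (-0.92 to -0.64) and Abcg1 at -0.64 (-1.07 to -0.50), where 5.0% of all genes were, and 0 were higher, where 5.97% were. Smooth muscle-like cells had 3 of 20 members measured lower in GF, where 6.62% of all genes were, and 3 higher, where 10.7% were. The lower ones were Cyp51 at -0.91 (-1.54 to -0.36), Insig1 at -0.60 (-1.16 to -0.09) and Sqle at -0.59 (-1.29 to 0.04). The Sqle interval spans 0. The higher ones were Fdft1 at 0.98 (0.14 to 2.07), Abca1 at 0.68 (0.08 to 1.36) and Fdps at 0.64 (0.16 to 1.18). The differences between classes were not tested.

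**Figure D5:**
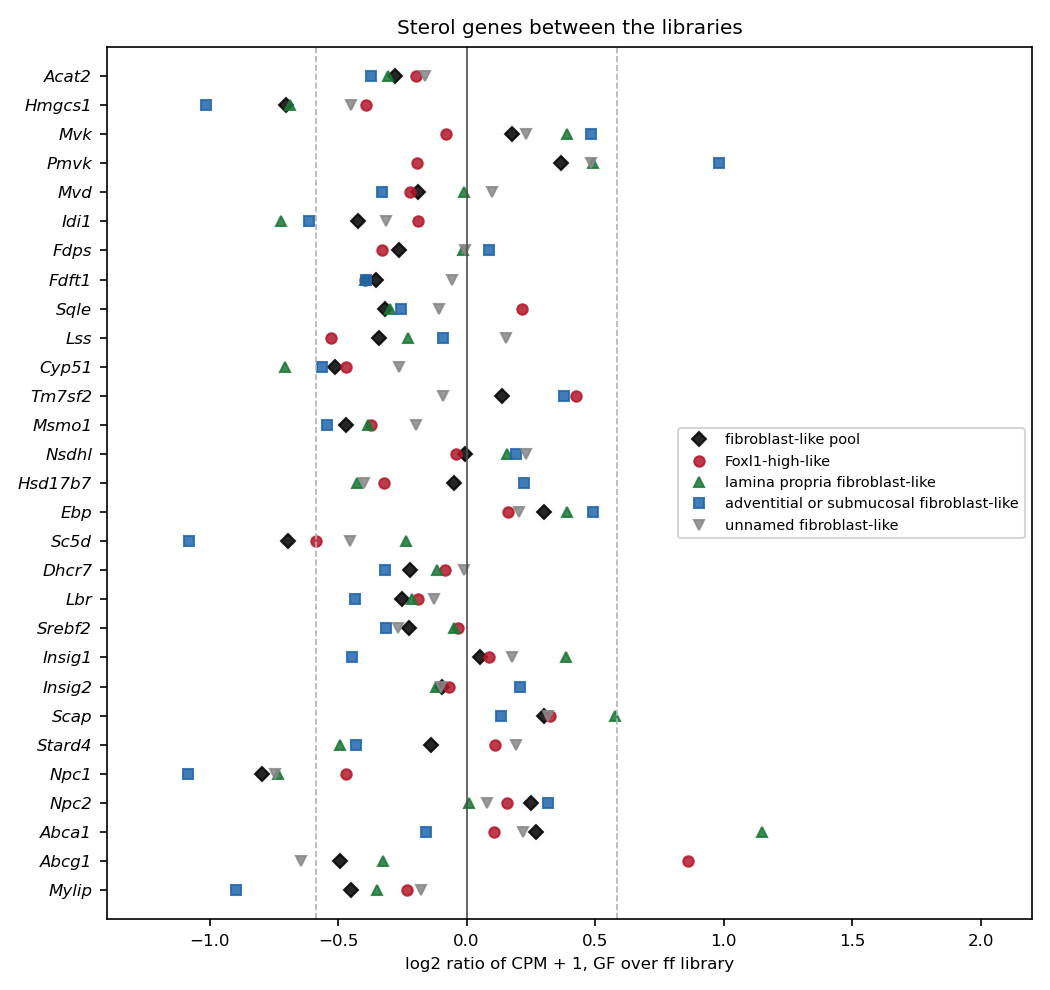
Log2 ratios of the level (CPM + 1) in GF over ff for the sterol genes measured in the fibroblast-like pool (black diamonds) and in 4 classes, with dashed lines at 1.5-fold. Npc1 and Sc5d lie left of 0 in the pool and in all 4 classes, and Abca1 of the lamina propria fibroblast-like class and Pmvk of the adventitial or submucosal fibroblast-like class lie farthest to the right.

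Other genes of sterol handling, a list of 25 taken beside the members, had 6 at least 1.5-fold higher in both libraries in the Foxl1-high-like class, where 10.3% of all genes were, and 3 lower, a share near the 11.1% of all genes. Cav1, which encodes caveolin of cholesterol-rich membrane pits, stood at 2.70 and 2.49, and Ch25h, which makes an oxysterol, at 1.82 and 2.81. The receptor genes Vldlr and Lrp1, which take up lipoproteins, were lower, at -1.999 and -2.05 for Vldlr and at -1.28 and -1.51 for Lrp1. Of 14 measured genes of fatty acid synthesis 2 were higher in both libraries, a share near the 10.3% of all genes. They were Elovl6, a fatty acid elongase (0.96 and 1.22), and Acsl3, an acyl-CoA synthetase (0.74 and 0.85). None was lower in both, where 11.1% of all genes were, and the medians were 0.23 and 0.01. Scd2, a desaturase, stood at 0.69 and 0.46, and Me1, the malic enzyme, at -0.64 and -0.45. Across the 13 clusters the fatty acid sum stood at 0.77 and 0.70 (Spearman's rho) with the synthesis sum.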

How the data were processed

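The data were 10x Chromium 3' v3.1 libraries of sorted colon mesenchymal cells, 1 per group. The deposited tables hold raw UMI counts per Ensembl gene and barcode, which the authors did not normalize, as the values show. The submitters' processing notes name Cell Ranger 6.0.0 and mm10, with no annotation release. No barcode had fewer than 500 UMIs. The ff matrix summed to 119866589 UMIs and the GF matrix to 105331294. Symbols were found for 32158 of 32285 genes, and coordinates come from GENCODE vM21 (GRCm38).

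Barcodes under 500 genes or 1000 UMIs, or with over 10% mitochondrial UMIs, were dropped (12702 ff and 15066 GF cells stayed), and Scrublet in scanpy 1.11.5 marked 538 and 767 doublets, which were removed. Both libraries were clustered together on 2000 variable genes without the sterol and other listed genes (30 components, 15 neighbours, leidenalg 0.10.2 at resolution 1, 24 clusters). A cluster was named where at least 3 fixed markers were 2-fold higher than in all other cells with 1 among the top 20 genes; a tie between types among the top 10 left it unnamed, a rule set after the data were seen, which applied to the Col6a5-led cluster. Collagen-rich unnamed clusters (at least 25% of the median of named ones) joined the pool. Single cells then needed 5 UMIs of Col1a1, Col1a2 and Col3a1 and 0 of Ptprc, Epcam and Pecam1.

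Intervals are exact at 95% (Poisson for CPM, conditional binomial for ratios, Clopper-Pearson for shares), and the scripts were tested on simulated data. With 1 library per group no test was made. A gene was called at a fold of 1.5 or more with the same sign in ff and GF, or between the libraries for GF over ff, where at least 50 UMIs over both were needed. The genes given by class were the 10 of regulation, uptake and export and each synthesis gene so called; from each further list up to 4 genes with at least 200 UMIs per library were named. The members, lists and rules were chosen with earlier results of these data known. Alternatives to the filter, doublets, gate, scaling, depth, weighting, pseudocount, minimum and resolution were computed.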

Additional observations from a re-analysis of the deposited data

Results flagged for a closer look

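Abcg1 moved in opposite directions in the 2 libraries: its log2 ratio between the Foxl1-high-like class and the rest of the pool was -0.82 in ff and 0.74 in GF, past 1.5-fold on both sides. In the same libraries its GF over ff ratio was -0.64 in the unnamed fibroblast-like class and 0.86 in the Foxl1-high-like class. The levels behind these are low, 2.55 and 5.46 CPM in the Foxl1-high-like class and 6.24 and 3.64 CPM in the unnamed class, which holds the Cfd-led cluster. These differences were not tested. With 1 library per group no sample could be set against others of its group.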

How the results depend on the processing

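Under 12 alternatives the 12 synthesis genes higher in Foxl1-high-like cells became 11 with clusters weighted equally and 14 with cells thinned to 2000 UMIs, and stayed at 12 in 9 of them and in the added stricter pick of cells; the loose pick of cells by markers gave 2. The 1 uptake and export gene lower there became 2 with thinning, Abca1 being added, and 0 with the loose pick, which also turned the ff ratios of Idi1 to -0.032, of Srebf2 to -0.042 and of Abcg1 to 0.23. Most cells of that pick lay outside the class. The 3 members lower in GF became 5 with thinning and 4 with the stricter filter or a Pdpn UMI. Clusters whose synthesis sum exceeded the other sum numbered 4 in ff and 3 in GF at resolution 0.5, which left 8 clusters. Of 750 single ratios of the class under the alternatives 729 kept their sign, and of 348 between the libraries 342 did. Keeping the sign is a weaker demand than keeping the 1.5-fold call. Of the same ratios, 62 of the class and 4 between the libraries crossed 1.5-fold. Among ratios past 1.5-fold in the main setting, 412 of 466 and 36 of 36 stayed past it. No paired analysis was possible because each group holds 1 library, and for the same reason no library could be left out. Depth limits the low members, of which Tm7sf2 (197 and 187 UMIs) and Abcg1 (498 and 266) had the fewest.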
